A study of Mus musculus with 14 samples.

Results

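The nuclear genes for subunits of the mitochondrial respiratory chain and ATP synthase were followed in T cells sorted from mouse tumours. They were taken by symbol: every gene named as an Nduf a, b, c, s or v subunit, Sdha to Sdhd, Uqcr, Cox4 to Cox8 or Atp5, with at least 10 counts in 2 or more of the 14 libraries. Of 86 such symbols among 25124 genes in the table, 80 met the count minimum: 37 of complex I, 4 of complex II, 8 of complex III, 14 of complex IV and 17 of complex V. All 80 were among the 13434 genes tested. Just inside the minimum were Cox6b2, with 10 or more counts in 2 libraries, and Ndufa4l2, with 10 or more in 3. Just outside were Ndufa11b with 3 counts over all libraries, Cox4i2 and Ndufb4c with 2 each, and Cox7b2, Cox8b and Cox8c with 0. The mitochondrially encoded subunits are not analysed here.

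Female C57BL/6 mice, aged 8 to 12 weeks and labelled GATIR Foxp3Cre-rfp Gata3Cre-yfp in every group, carried subcutaneous AE17-OVA mesothelioma. On day 10 they received 200 µg of antibody into the peritoneum, namely MIH5, which binds PD-L1, or the isotype control 2A3, and cells were sorted on day 13 by CD4, CD25, RFP and PD1. CD4 T cells gave 2 isotype and 3 treated libraries, PD-1- regulatory T cells (Tregs) 2 and 2, and PD-1+ Tregs 2 and 3. Libraries were made with Smart-seq2, a full-length method without molecular identifiers. The series calls the replicates biological, but the sources used here do not tie libraries to animals or pools, and a p-value reflects the variation among libraries alone. In such bulk samples, fewer cells of a type and less RNA per cell cannot be told apart.

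Library totals ran from 10638848 to 15030804 counts, and 8027 to 14535 genes had a count. Foxp3, the Treg transcription factor, stood at 114 to 198 CPM (counts per 1000000, scaled by TMM) in PD-1- Tregs, 15.9 to 156 in PD-1+ Tregs and 16.3 to 55 in CD4 T cells, so PD-1+ Tregs overlapped with both others. For Il2ra, which encodes CD25, PD-1- Tregs held 247 to 662 CPM and PD-1+ Tregs 192 to 391. CD4 T cells held 13.4 to 79.5 CPM of Il2ra, below both. Pdcd1, which encodes PD-1, stood at 21.7 to 46.5 CPM in PD-1- Tregs and 85.6 to 246 in PD-1+ Tregs, and at 45.4 to 275 in CD4 T cells. Reads from Y-linked genes, at 208, 250 and 285 CPM, were found in 3 of the 14 libraries, although the mice are labelled female: CD4 T cells treated 3, PD-1- Tregs treated 2 and PD-1+ Tregs treated 3. These are the 3 libraries whose titles carry the number 3 in brackets, which for PD-1- Tregs differs from the replicate number. What the bracketed number marks is not stated. The other libraries held at most 0.0849 CPM.

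Complex I takes electrons from NADH and complex II from succinate, and both pass them to ubiquinone. Complex III hands them to cytochrome c and complex IV to oxygen. Complexes I, III and IV pump protons, and complex V, the ATP synthase, lets the protons back through a rotating ring to make ATP in its F1 head. The chain matters to T cells because resting, memory and regulatory T cells are known to lean on mitochondrial respiration, while freshly activated effector cells use much glycolysis.

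Promoter letters of the members were read from RefSeq (GRCm38.p6), in which 66 of 80 members have an entry. NRF1 and the ETS factor GABP are classical activators of respiratory chain genes, so letters of their sites were searched on both strands in the 250 bases before the start. The NRF1 core GCATGCGC was found in 8 of the 66 members (12.1%) and in 2.56% of 27025 genes with such an entry. The ETS core CCGGAAG was found in 12 members (18.2%) and 7.83% of genes. CCAAT was found in 29 members (43.9%) and 37.5% of genes, the SP1 letters GGGGCGGGG in 9 (13.6%) and 11.8%, and TATAAA in 6 (9.09%) and 14.3%. The 27025 genes outnumber the 13434 tested, so they include genes with few or no counts here. The shares thus do not set the members against other expressed genes. A match describes the letters and is not a measured binding site. Shown are 7 of the 8 NRF1 matches (Atp5l holds the other), because this match is the least common of the motifs over all genes. The 4 ETS windows shown were picked after values were seen, before members whose treatment values are given below. Other members with the ETS letters and values below, such as Atp5j, Cox6b1, Ndufb7 and Uqcr11, are not shown. The part of these letters in the treatment differences was not tested. Each window is 30 bases on the gene's strand, with the motif in capitals.
Atp5g2, chr15:102671069-102671098, minus strand: gctccggccgcGCATGCGCagagccttccc
Atp5k, chr5:108434429-108434458, minus strand: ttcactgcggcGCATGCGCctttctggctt
Cox6a1, chr5:115349100-115349129, minus strand: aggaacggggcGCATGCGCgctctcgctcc
Ndufa11, chr17:56717693-56717722, plus strand: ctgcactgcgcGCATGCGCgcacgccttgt
Ndufa6, chr15:82354356-82354385, minus strand: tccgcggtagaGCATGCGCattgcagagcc
Ndufa8, chr2:36049328-36049357, minus strand: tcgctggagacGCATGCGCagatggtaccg
Sdhb, chr4:140961206-140961235, plus strand: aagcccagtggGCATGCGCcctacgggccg
Atp5h, chr11:115419939-115419968, minus strand: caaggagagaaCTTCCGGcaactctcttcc
Atp5e, chr2:174464185-174464214, minus strand: tacggccacagCTTCCGGtagccgctcggc
Sdhd, chr9:50603877-50603906, minus strand: ccgtctcctgcCTTCCGGttcacgcttcag
Ndufs3, chr2:90904730-90904759, minus strand: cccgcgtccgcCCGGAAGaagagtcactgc
The genes with the NRF1 letters encode a c ring subunit (Atp5g2), a small membrane subunit of ATP synthase (Atp5k), a complex IV subunit (Cox6a1), complex I accessory subunits (Ndufa6, Ndufa8 and Ndufa11) and the iron-sulfur subunit of complex II (Sdhb). In Atp5g2, Atp5k, Cox6a1 and Ndufa11 the letters also match on the opposite strand, shifted so that the matches overlap. In the ETS windows of Atp5h, Atp5e and Sdhd the motif lies on the opposite strand and reads CTTCCGG.

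The members were steadily expressed. Of 80, 76 had counts in every library, while 63.5% of all genes tested lacked counts in at least 1 library. The SD of log2 CPM within groups had a median of 0.322 over members, 1.35 over all genes tested and 1.07 over the 7124 genes tested in the same range of level. That range, means of 18.9 to 869 CPM, does not match genes by level. Of those 7124 genes, 37.3% lacked counts in at least 1 library. CD4 T cells had a median of 0.184 over members, PD-1+ Tregs 0.327, PD-1- Tregs 0.364, beside 0.427, 1.05 and 1.16 over all genes tested. The accessory subunits Ndufv3 (0.13) and Ndufa13 (0.15) had the smallest spread. Among members with counts in every library, Uqcrc2 (0.82), Ndufs6 (0.79), Ndufs1 (0.73) and Cox7a2l (0.72) had the largest.

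Levels between genes were compared on the deposited RPKM, which is scaled by transcript length. In complex I the highest means were those of the accessory subunits Ndufb7 (579 RPKM, range 493 to 725), Ndufb8 (526) and Ndufa3 (450). The lowest were Ndufa4l2 (0.221), Ndufa4's relative induced by hypoxia, then Ndufs1 (37.5), the largest iron-sulfur subunit, and Ndufa11 (37.7). Among the other catalytic or core subunits of complex I, Ndufv1, the flavin subunit that oxidises NADH, stood at 71.3, Ndufs3 at 109, Ndufv2 at 174, Ndufs7 at 192 and Ndufs8 at 210.

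In complex II the iron-sulfur subunit Sdhb stood at 572 RPKM, above its partners: the membrane anchor Sdhd at 134, the flavoprotein Sdha at 127 and the anchor Sdhc at 75.4. In complex III, Uqcr10 (477), core protein 1 Uqcrc1 (454) and Uqcr11 (296) were highest. Uqcrc2, core protein 2 (78.9), the Rieske protein Uqcrfs1 (89.2) and Uqcrb (131) were lowest. In complex IV, Cox4i1 (621), Cox6b1 (582) and Cox6a1 (395) led, with Cox5a at 366 and Cox5b at 197. In complex V, Atp5j (coupling factor 6, 558), Atp5o (the oligomycin sensitivity protein, 382) and Atp5k (362) led. The catalytic beta subunit Atp5b stood at 288 and Atp5a1 at 223. Atp5g2 (25.5), Atp5l (83.1) and Atp5g1 (118) were lowest.

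Complex IV has widely expressed isoforms and others typical of muscle, testis or hypoxia. The widely expressed ones carried nearly all of the RPKM. Cox6a1 made up 98.8 to 100% of Cox6a1 plus Cox6a2 in 12 of 14 libraries, and the muscle isoform Cox6a2 reached 2.71% in PD-1+ Tregs treated 1 and 13.4% in PD-1+ Tregs treated 3. The testis isoform Cox6b2 had 117 counts in that last library and at most 18 in any other. Cox7a1, the muscle isoform of Cox7a2, had 97 counts there, 77 in PD-1- Tregs isotype 2 and at most 45 elsewhere. Those 2 libraries also stood high in the summed CPM of 9 genes of mesothelial tumour and stroma, at 1288 and 1541, among 168 to 1346 in the other libraries. PD-1- Tregs isotype 2, the highest, had 0 counts of Cox6a2 and Cox6b2. PD-1- Tregs treated 2, at 1188, had 0 counts of Cox6a2, Cox6b2 and Cox7a1. CD4 T cells isotype 1, at 1346, had 15, 18 and 21. The part of tumour or stroma RNA in these isoform counts was not tested. The family of Cox7a2 was mixed: Cox7a2 made up 56.9 ± 3.94% of the summed RPKM of Cox7a1, Cox7a2 and Cox7a2l in CD4 T cells (SD, n = 5). The same share was 62.8 ± 7.65% for PD-1- Tregs (n = 4) and 75.3 ± 7.43% for PD-1+ Tregs (n = 5). Cox7a2l, known as a factor for supercomplex assembly, made up 41.4 ± 4.06%, 35.7 ± 6.25% and 21.5 ± 9.22% in the same order. Its share was below every CD4 library in each PD-1+ Treg library, and lowest, at 7.65%, in PD-1+ Tregs treated 3. Because 4 members have libraries at 0 (Cox6a2, Cox6b2, Cox7a1 and Ndufa4l2), no fold is given for them.

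The 3 genes that encode the same mature c subunit of the ATP synthase ring were all expressed. Atp5g3 made up 52.8 ± 2.64% of their summed RPKM in CD4 T cells (SD, n = 5), Atp5g1 37.2 ± 3.4% and Atp5g2 9.96 ± 1.88%. In PD-1+ Tregs the shares were 49.5 ± 4.26%, 42.2 ± 4.04% and 8.23 ± 0.843% (n = 5), and in PD-1- Tregs 54 ± 9.25%, 37.9 ± 11.4% and 8.09 ± 4.58% (n = 4). The 3 populations overlapped in each share.

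The members' summed level was highest in PD-1+ Tregs from isotype mice. It stood at 20645 and 19170 CPM in those 2 libraries and at 16043, 16190 and 16984 CPM in the 3 treated ones, which did not overlap. PD-1- Tregs had 17206 and 15196 CPM with isotype and 14687 and 15006 with anti-PD-L1, without overlap on this scale. CD4 T cells had 14026 and 16275 against 14131, 14650 and 14834, which overlapped. As a share of all counts, before any scaling, the members took 2.12 and 1.98% in isotype PD-1+ Tregs, and 1.54, 1.52 and 1.55% in treated ones. PD-1- Tregs took 1.74 and 1.44% with isotype and 1.55 and 1.61% with treatment, so that their arms overlapped before scaling. CD4 T cells took 1.48 and 1.68% against 1.43, 1.42 and 1.46%, without overlap.

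**Figure D1:**
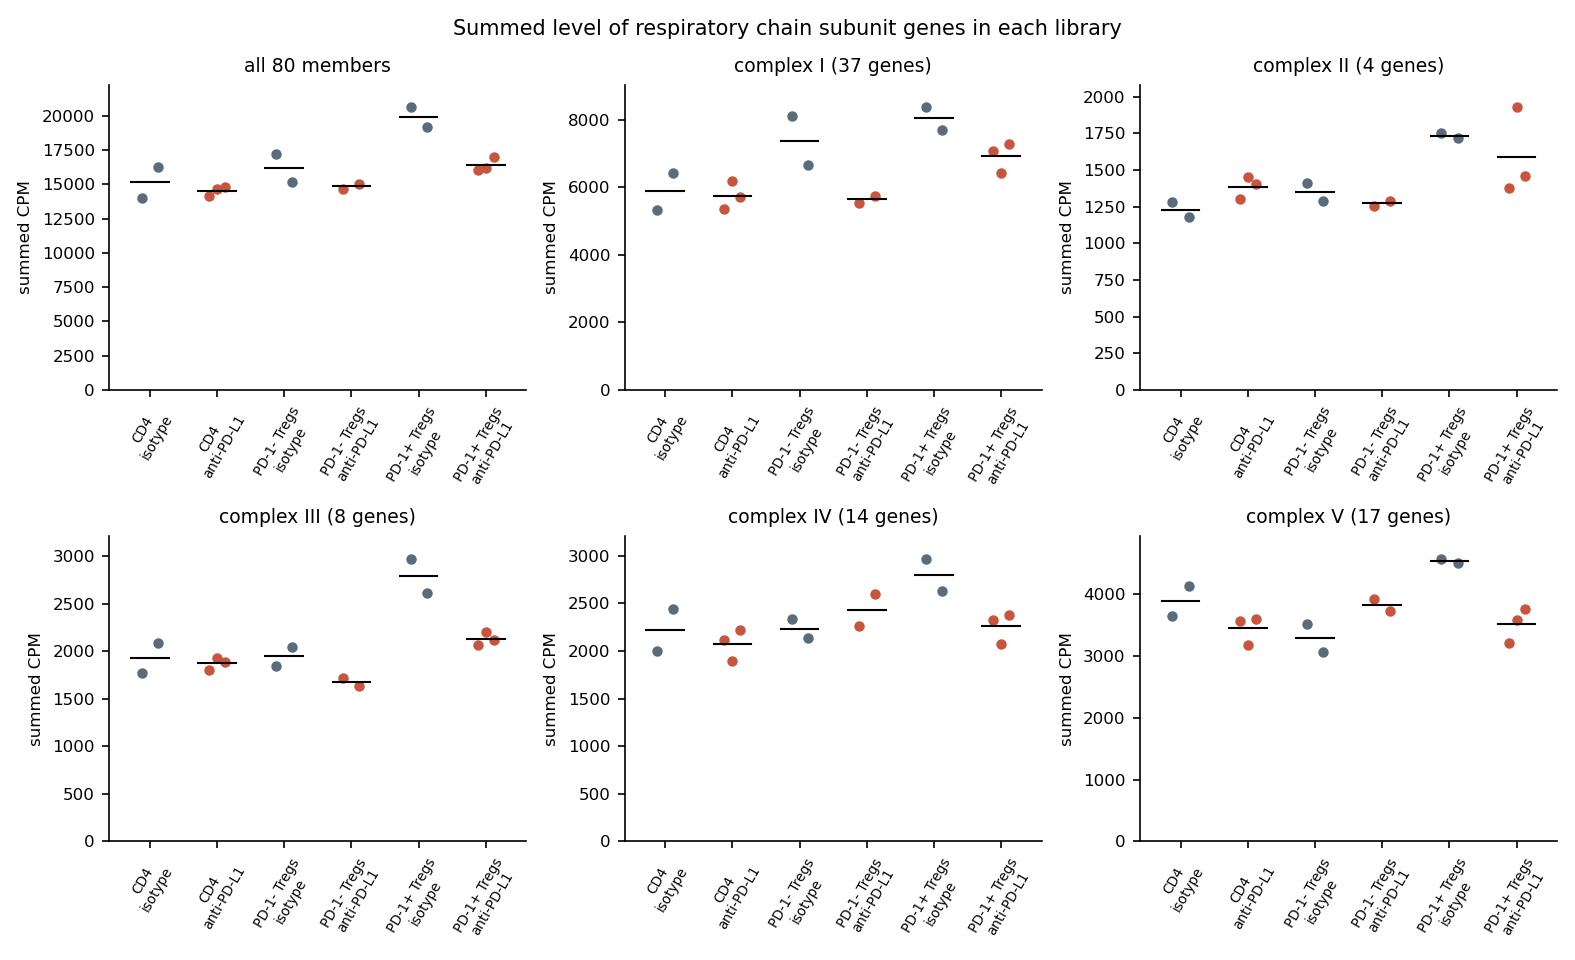
Summed CPM of all members and of each complex (vertical axis) in the 6 groups (horizontal axis); points are libraries, grey isotype and red anti-PD-L1, and bars are group means. The 2 isotype PD-1+ Treg libraries (20645 and 19170 CPM over all members) lie above every other library in the panel of all members, and in those of complexes III, IV and V.

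In PD-1+ Tregs, anti-PD-L1 came with lower levels of most members, but no single member passed the test. Of 80 members, 64 were lower and 15 higher, with a median log2 difference of -0.35, against a median of 0.00 and 46.4% lower over all genes tested. With edgeR's quasi-likelihood test, 0 members passed an adjusted p of 0.05 (0.0149% of all genes tested did), 5 had an unadjusted p under 0.05, all lower (8.06% of genes in either direction), and DESeq2 called 1, Ndufs7 (4.97% of genes). Every treated library lay below every isotype library for 34 members (11.5% of all genes) and above for 2, Cox7a1 and Ndufv3 (7.69%). Leaving out the libraries with Y-linked reads, 66 members were lower and the median was -0.43, with the median of all genes in that fit not given here.

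By complex, 16 of 17 ATP synthase members were lower, 11 of them without overlap, with a median of -0.43: all 4 stator, all 3 c ring and all 5 other membrane members, and 4 of 5 of the F1 head. Complex III had 7 of 8 lower (median -0.48), complex IV 10 of 14 (-0.26, or 10 of 11 and -0.38 without the isoforms that have libraries at 0), complex I 28 of 37 (-0.26) and complex II 3 of 4 (-0.25). Ndufa4, named for complex I and now placed in complex IV, moved neither median by more than 0.02 when counted there (-0.25 and -0.28).

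Ndufs7 carries the iron-sulfur cluster that passes electrons to ubiquinone. It stood at 194 and 187 CPM with isotype and 115, 116 and 85.2 with anti-PD-L1 (log2 -0.85 ± 0.28, adjusted p = 0.595 in edgeR). Uqcrq, a small complex III subunit, stood at 441 and 355 against 231, 154 and 273 (-0.86 ± 0.29, adjusted p = 0.595). The groups did not overlap for either gene.

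Atp5h, the d subunit of the ATP synthase stator, stood at 227 and 210 CPM against 145, 88 and 123 (-0.88 ± 0.33, edgeR adjusted p = 0.596). Atp5e, the epsilon subunit, stood at 325 and 180 against 171, 76.8 and 129, and the complex II anchor Sdhd at 358 and 317 against 180, 278 and 96. These 5 genes are the ones with an unadjusted p under 0.05, and all 5 were lower in each treated library. Among the highest members, Atp5a1, the alpha subunit of F1, went the other way, at 542 and 565 against 501, 743 and 761 CPM, and Sdhb stood at 816 and 790 against 633, 910 and 1019, both with overlap. Uqcrc2 was at 267 and 231 against 161, 116 and 29, and its lowest value was in PD-1+ Tregs treated 3, a library with Y-linked reads.

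**Figure D2:**
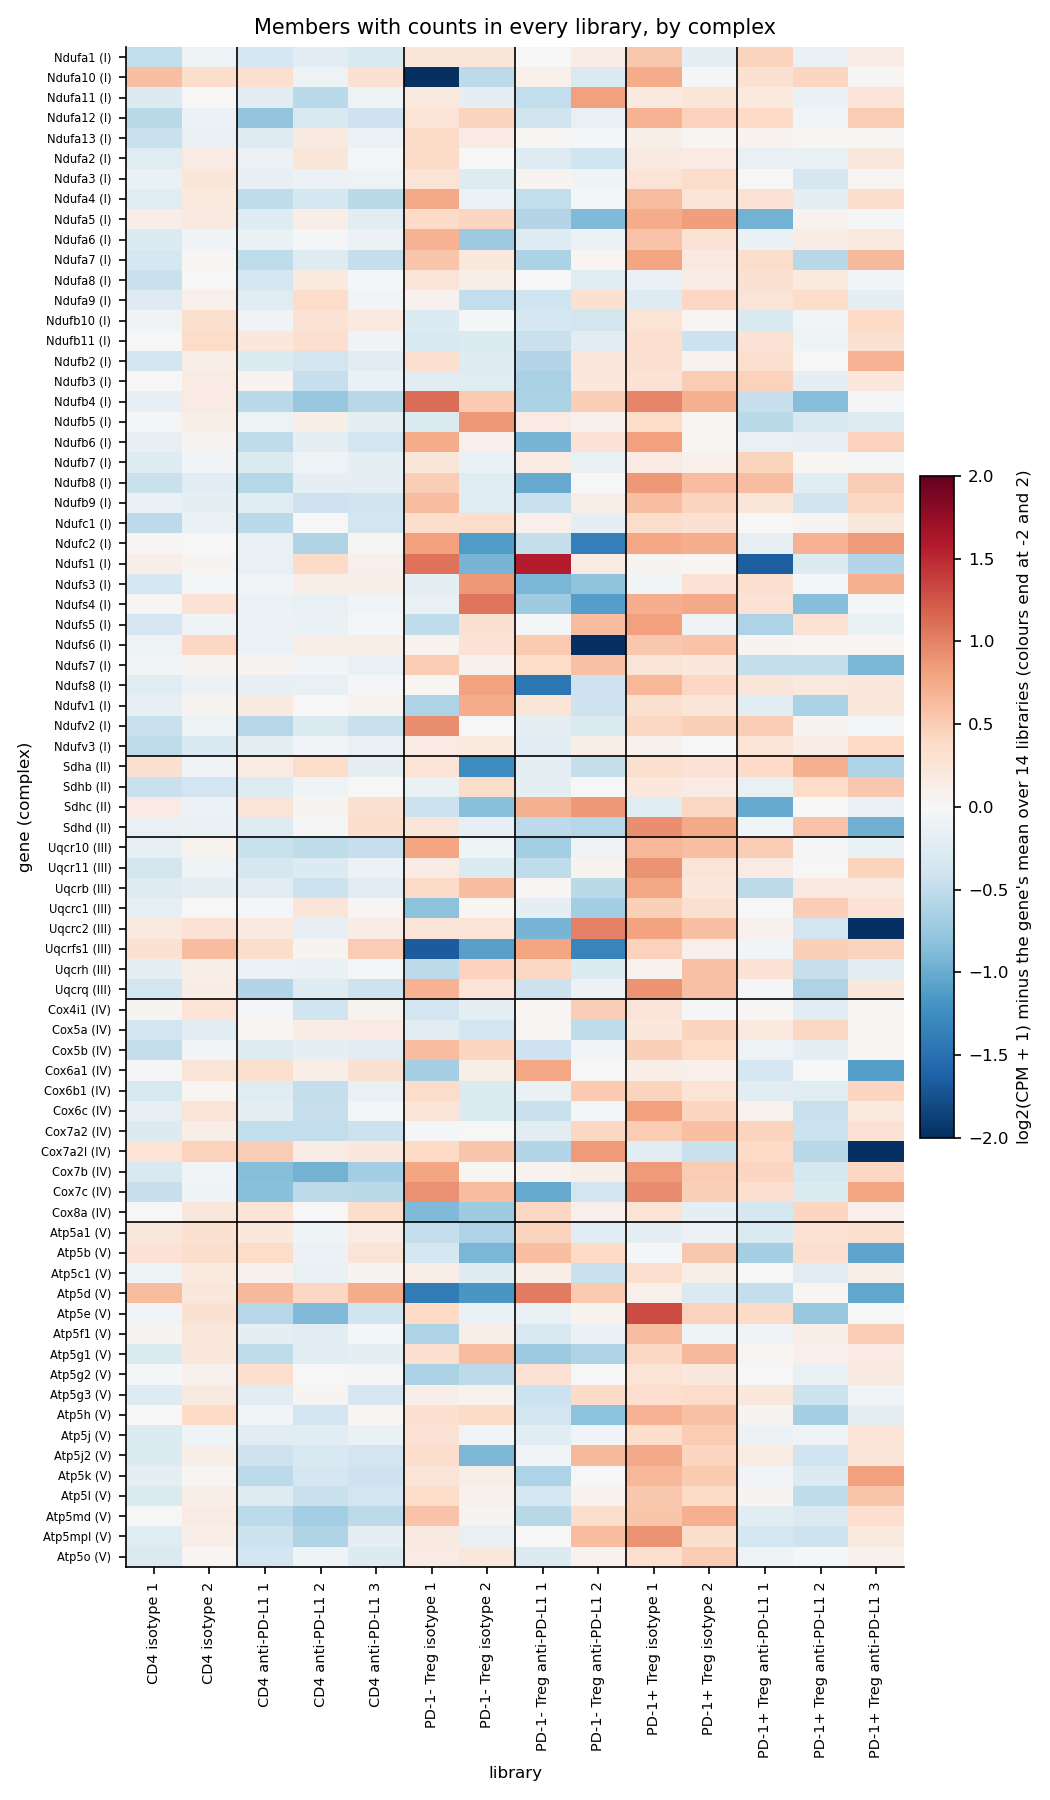
Colour gives log2(CPM + 1) of members with counts in every library (rows, by complex; 1 of the 76 is left out) minus its own mean over the 14 libraries (columns, by group). The isotype PD-1+ Treg columns are mostly red, above the gene means, and the CD4 T cell columns are pale; the dark blue cells include Ndufa10, Ndufs6, Uqcrc2 and Cox7a2l in single Treg libraries.

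In PD-1- Tregs, 1 member passed the test: Atp5d, the delta subunit in the rotor stalk of the F1 head, rose with anti-PD-L1. It stood at 47.4 and 55.7 CPM with isotype and 262 and 183 with treatment (log2 2.11 ± 0.42, edgeR adjusted p = 0.0203). The isotype values are below every other library, since CD4 T cells held 148 to 212 CPM and PD-1+ Tregs 61.3 to 135. The 1 call of 80 stands against 2.66% of all genes tested called, 1.38% upward and 1.29% downward. It was lost with limma-voom (adjusted p = 0.0851), with sample quality weights (0.574), with only these 4 libraries fitted (0.705) and with the replicate block (0.0638). It was also lost without PD-1- Tregs isotype 1 (0.0617), CD4 T cells isotype 1 (0.0526) or CD4 T cells isotype 2 (0.0504), while the log2 difference stayed between 1.82 and 2.33 under all alternatives.

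Atp5d lies on chromosome 10 (80138698 to 80145828, GRCm38.p6), and its exons overlap those of the antisense gene Cbarp. The sources used here do not say whether counting used strand, so reads of the 2 genes may be mixed. Cbarp was counted at 17.8 and 1.54 CPM in isotype and 8.13 and 87.9 in treated PD-1- Tregs.

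The other F1 subunits of PD-1- Tregs differed among themselves. Atp5b, the catalytic beta subunit, stood at 454 and 307 CPM with isotype and 883 and 763 with treatment (1.11 ± 0.39, edgeR adjusted p = 0.149), and Atp5a1, the alpha subunit, at 437 and 398 against 833 and 524. Neither overlapped, and neither passed. Atp5c1 (gamma) stood at 365 and 277 against 366 and 243, and Atp5e (epsilon) at 172 and 119 against 119 and 137. The 4 stator members were all lower with treatment (median -0.27), 3 of them without overlap.

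**Figure D3:**
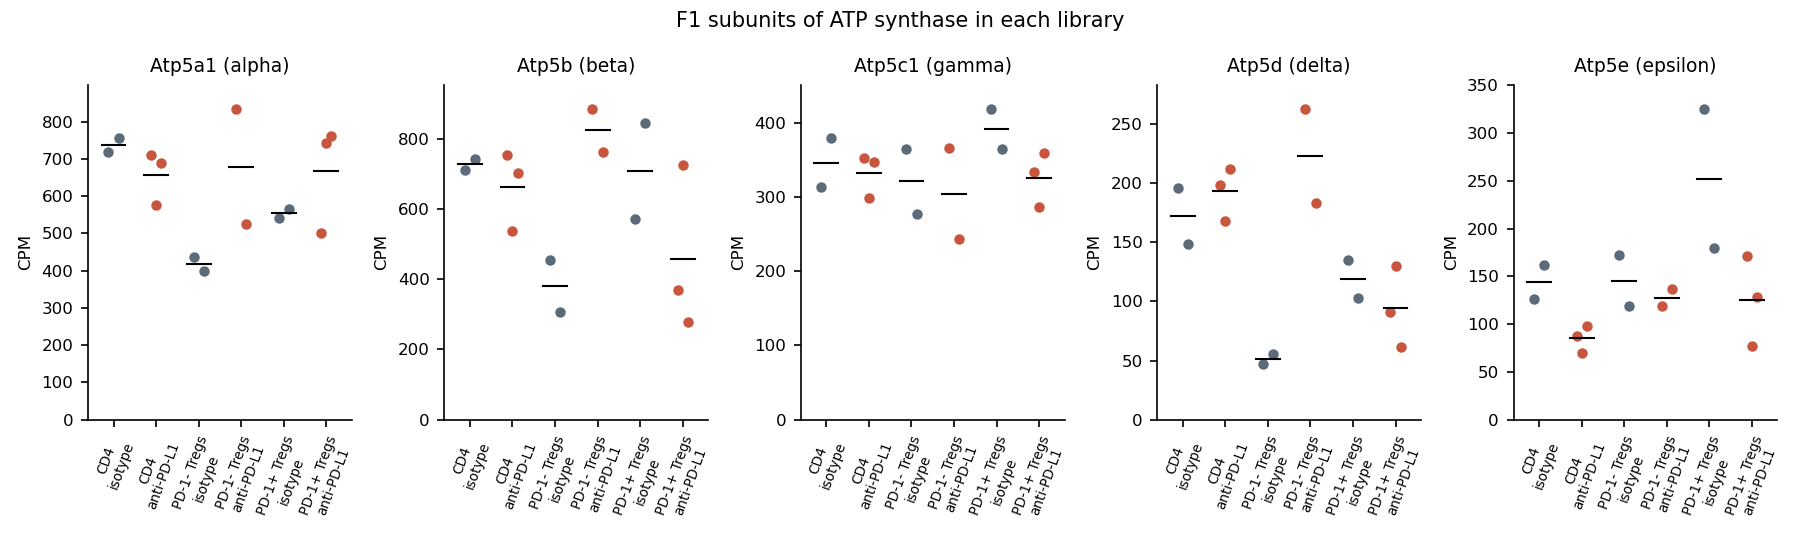
CPM (vertical axes, from 0) of the 5 F1 subunits of ATP synthase in the 6 groups (horizontal axis); points are libraries, grey isotype and red anti-PD-L1, and bars are group means. Atp5d, Atp5b and Atp5a1 are separated by treatment in PD-1- Tregs, with Atp5d at 47.4 and 55.7 against 262 and 183, and Atp5c1 and Atp5e are not.

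Over all members in PD-1- Tregs, 55 were lower and 23 higher, with a median of -0.22 against 0.00 over all genes. An unadjusted p under 0.05 was found for 20 (20.1% of all genes), 7 higher and 13 lower. Without overlap, 27 were lower (14% of all genes) and 8 higher (12.5%). Under RPKM with a pseudocount of 1, the median was -0.02 with 42 lower. With limma-voom, the members' -0.23 stood beside -0.22 over all genes. DESeq2 called 16 members, 7 higher and 9 lower, where it called 23.6% of all genes.

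Complex I had 30 of 37 members lower (median -0.34), complex II 3 of 4 (-0.13), complex III 5 of 8 (-0.12), complex IV 6 of 14 with 6 higher (0.00) and complex V 11 of 17 (-0.08). The complex IV figures include Cox6a2 and Cox6b2, which had 0 counts in every PD-1- Treg library. They also include Cox7a1, 1 of the 6 lower, which had 77 counts in isotype 2 and 0 in the rest. Ndufs8, an iron-sulfur subunit of complex I, stood at 192 and 328 CPM with isotype and 68.5 and 141 with treatment (-1.32 ± 0.37, edgeR adjusted p = 0.0808). Ndufs3, in the same arm, stood at 100 and 209 against 60.4 and 65.4 (-1.30 ± 0.44, adjusted p = 0.135). Both were below isotype in each treated library.

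Atp5g1, the c ring gene, stood at 132 and 163 against 63.2 and 69.3 CPM (-1.16 ± 0.39, edgeR adjusted p = 0.138). In the other direction, Sdhc, a complex II anchor, stood at 70.6 and 53.2 against 157 and 176 (1.43 ± 0.48, adjusted p = 0.135). Core genes with a wide spread gave no separation: Ndufs1 had 214 and 52.6 CPM with isotype and 302 and 113 with treatment, and Uqcrfs1 37.6 and 56.4 against 209 and 47.9.

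In CD4 T cells, 0 members passed edgeR's test (0.00744% of all genes did), 0 had an unadjusted p under 0.05 (1.15% of genes) and DESeq2 called 0 (0.425%). Of 80 members, 54 were lower with anti-PD-L1 and 26 higher, with a median of -0.12 against -0.01 over all genes. Without overlap, 19 were lower (15.5% of all genes) and 3 higher, Cox5a, Ndufv3 and Sdhb (12.5%). Complex V had 15 of 17 lower (median -0.28), complex III 7 of 8 (-0.11), complex I 23 of 37 (-0.05) and complex IV 8 of 14 (-0.12), while complex II had 1 of 4 lower (0.18). Without CD4 T cells isotype 2 the median over all members was 0.00, with 37 lower.

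The members nearest the threshold in CD4 T cells were far from it, with every adjusted p at 1 in edgeR. Cox7b, a complex IV subunit, stood at 114 and 135 CPM with isotype and 77.5, 72.7 and 86.4 with treatment. Atp5e stood at 126 and 162 against 87.2, 70.1 and 98.3. Cox5a, the largest difference upward among members with counts in every library, stood at 220 and 244 against 294, 318 and 321, with each treated library higher.

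**Figure D4:**
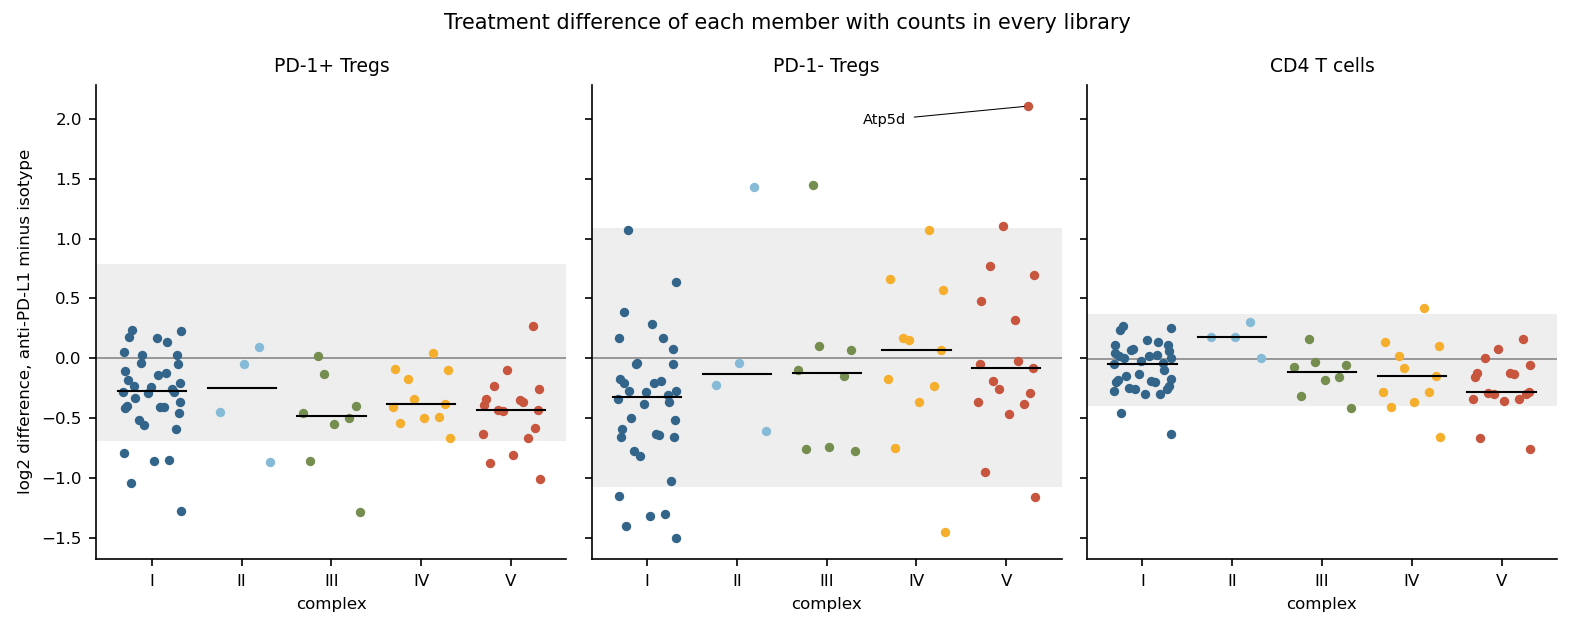
Log2 difference of anti-PD-L1 minus isotype (vertical axis) for the 76 members with counts in every library, by complex (horizontal axis) in the 3 populations; black bars are medians, the grey band spans the middle quartiles and the grey line the median of all genes tested. Complex V lies below 0 in PD-1+ Tregs for 16 of 17 genes, and Atp5d stands apart in PD-1- Tregs at 2.11.

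Between populations, averaged over both arms, no member passed edgeR's test. PD-1+ Tregs against PD-1- Tregs gave 0 calls (4.28% of all genes called, 3.8% upward), 12 unadjusted p-values under 0.05 (22.3% of genes) and 4 calls with DESeq2, which called 24.8% of all genes. There, 68 members were higher and 12 lower in PD-1+ Tregs, with a median of 0.23 against 0.42 over all genes. Among genes with counts in every library, 76 members had a median of 0.22 and 4821 other genes 0.03. With RLE factors or DESeq2, 23 were lower, and 19 without PD-1- Tregs treated 1. PD-1+ Tregs against CD4 T cells gave 0 calls (0.35%, 0.171% upward), 23 unadjusted p-values under 0.05 (12.4%) and 13 calls with DESeq2, all higher (6.21%). There, 63 were higher and 17 lower, with a median of 0.35 against -0.23, or 0.37 against -0.01 among genes with counts in every library. PD-1- Tregs against CD4 T cells gave 0 calls (3.6%, 3.33% downward), 10 unadjusted p-values under 0.05 (28.6%) and 11 calls with DESeq2 (25.7%). There, 46 were higher and 34 lower, with a median of 0.13 against -0.94, or 0.15 against -0.05 among genes with counts in every library.

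Of the members nearest the threshold, Uqcrc1, core protein 1 of complex III, stood at 1171, 1054, 837, 1190 and 1028 CPM in PD-1+ Tregs and 475, 868, 737 and 518 in PD-1- Tregs (0.71 ± 0.19, edgeR adjusted p = 0.056). The 2 populations overlapped only through PD-1+ Tregs treated 1 and PD-1- Tregs isotype 2. Cox5a was the only member for which they did not overlap, at 295 to 390 against 201 to 292 CPM, where 3.24% of all genes were higher without overlap, 0.782% lower and 4.02% either way.

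Ndufa12, an accessory subunit of complex I, stood at 435, 370, 354, 259 and 380 CPM in PD-1+ Tregs and 184, 247, 154, 217 and 200 in CD4 T cells (0.85 ± 0.18, edgeR adjusted p = 0.0852), without overlap. Cox7b stood at 110 to 256 CPM in PD-1+ Tregs, 144 to 244 in PD-1- Tregs and 72.7 to 135 in CD4 T cells. Ndufb8, an accessory subunit of complex I, stood at 334 to 716 CPM in PD-1+ Tregs and 263 to 348 in CD4 T cells. Without overlap, 7 members were higher in PD-1+ Tregs than in CD4 T cells (1.71% of all genes, and 6.43% in either direction): Ndufa12, Ndufb7, Ndufc1, Ndufs8, Ndufv2, Ndufv3 and Uqcr11. Atp5d was the 1 member lower (4.72%), at 61.3 to 135 against 148 to 212 CPM. In PD-1- Tregs against CD4 T cells, Cox7b, Ndufa1 and Ndufs7 were higher without overlap (1.01%) and Ndufb11 lower (13%).

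Markers of other cells moved with the populations. The summed CPM of 12 macrophage and monocyte genes ran from 319 to 1003 in PD-1- Tregs, 4134 to 7887 in PD-1+ Tregs and 2658 to 7241 in CD4 T cells. Of those 12, 10 were called higher in PD-1+ than in PD-1- Tregs and 8 lower in PD-1- Tregs than in CD4 T cells. None of the 12 was called for PD-1+ Tregs against CD4 T cells. C1qa, a complement gene of macrophages, was at 0 in all 4 PD-1- Treg libraries. The mannose receptor gene Mrc1 was the 1 marker called for treatment, at 36.2 ± 10.7 CPM in isotype PD-1- Tregs (SD, n = 2) and 0 in both treated libraries (edgeR adjusted p = 0.00204). Of 9 markers of dendritic cells and antigen presentation by class II, 5 were called higher in PD-1+ than in PD-1- Tregs, and the sums ran from 8654 to 15278 in PD-1- Tregs, 19644 to 48034 in PD-1+ Tregs and 15451 to 28374 in CD4 T cells. The number of genes with a count also moved with the populations, from 8027 to 8801 in PD-1- Tregs, 9662 to 11312 in PD-1+ Tregs and 12119 to 14535 in CD4 T cells. The part of these measures in the members' levels was not tested. In PD-1+ Tregs, the macrophage sums of the isotype libraries (5174 and 7887) and treated libraries (4134, 4489 and 5273) overlapped.

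Of the remaining marker lists, B cell genes (5 in the table) were separated by treatment where they summed to 189 and 364 CPM in isotype and 82.2, 22.9 and 38.4 in treated PD-1+ Tregs, and to 174 and 200 against 45, 83 and 75.2 for CD4 T cells. They overlapped in PD-1- Tregs, at 96.3 and 80.5 against 304 and 42. The part of B cell RNA in the members' levels was not tested. The sums were, over all libraries, for CD8 T and NK cell genes (6) 0 to 78.5 CPM, and for neutrophil and mast cell genes (6, of which 4 could be tested) 0 to 38.3. None of the tested genes of these lists passed in the 9 comparisons, nor did the 9 of mesothelial tumour and stroma or the 8 T cell genes, which summed to 5568 to 8049 CPM.

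Whether the treatment difference itself differed between populations was tested as an interaction. Between PD-1+ and PD-1- Tregs 0 members passed (1.46% of all genes did, 0.841% upward and 0.618% downward), with 8 at an unadjusted p under 0.05 (16.4%) and 6 calls with DESeq2, which called 18.2% of all genes. Between PD-1+ Tregs and CD4 T cells 0 passed, as did 0% of all genes, with 0 members at an unadjusted p under 0.05 (3.5%) and 0 calls with DESeq2 (2.3%). Between PD-1- Tregs and CD4 T cells 0 passed (0.975%), with 7 at an unadjusted p under 0.05 (14.3%) and 3 calls with DESeq2 (16.1%). The lowest adjusted p was that of Atp5d, whose difference in PD-1+ Tregs was smaller than in PD-1- Tregs by a log2 of -2.44 ± 0.55 (edgeR adjusted p = 0.0523). It passed under 9 of 25 alternatives. Atp5b gave -1.74 ± 0.52 (adjusted p = 0.131) and Sdhc -1.87 ± 0.64 (0.176).

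Genes that serve the chain but lie outside the naming pattern were read in the same fit. Of Ndufab1, Cyc1, Cycs and Atpif1, 1 passed: Atpif1, the inhibitor of ATP synthase hydrolysis, was higher in PD-1+ Tregs at 377 ± 101 CPM (SD, n = 5) than in CD4 T cells at 168 ± 36.2 (SD, n = 5) (a log2 difference of 1.2 ± 0.22, edgeR adjusted p = 0.0473). That comparison called 0.35% of all genes tested. In treated PD-1+ Tregs these 4 genes outside the pattern were all lower (median -0.32). Of 46 assembly factors, 3 passed for treatment in PD-1- Tregs, where 2.66% of all genes tested did. There, 30 of 46 were lower (median -0.60). Timmdc1, a complex I factor, fell from 225 and 198 CPM to 36.2 and 45.8 (edgeR adjusted p = 0.0212). Cox11, which inserts copper into complex IV, fell from 30.5 and 35.3 CPM to 0 in both treated libraries (adjusted p = 0.0192), and was also called in PD-1+ against PD-1- Tregs (0.0202) and in their interaction (0.0424). Cox18, which inserts a mitochondrially encoded complex IV subunit into the membrane, rose to 36 and 46.5 CPM, having had no reads with isotype (adjusted p = 0.0499). The treatment calls of Cox11 and Cox18 thus rest on an arm without counts. Of all genes tested, 60.8% lacked counts in at least 1 PD-1- Treg library. The 3 calls are given for the main setting alone.

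Assembly factors had 29 of 46 lower in treated PD-1+ Tregs (median -0.09) and 30 of 46 in treated CD4 T cells (-0.16). The mitochondrial ribosome, which makes the mitochondrially encoded subunits, had 63 of 78 genes lower in treated PD-1+ Tregs (median -0.36), 46 of 78 in PD-1- Tregs (-0.38) and 60 of 78 in CD4 T cells (-0.15), with 0 called in each. The 13 genes of the citric acid cycle had medians of 0.01, 0.25 and -0.11 in the same order, the 8 carriers and channels 0.10, 0.11 and 0.19, and the 14 regulators tested -0.16, 0.85 and -0.30, with 0 called. Ppargc1a, the coactivator of mitochondrial biogenesis, had no counts in any library. Nrf1 stood at 0 and 99.9 CPM in isotype and 159 and 36.8 in treated PD-1- Tregs.

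Transcript length moved with the treatment difference in PD-1+ Tregs. The length that counts and RPKM imply had a median of 803 bases over the 76 members with counts in every library and 2873 over the 4897 such genes in all, and 72 of 76 members fell in the 2 shortest of 5 equal classes. In PD-1+ Tregs the median difference of other genes ran from -0.24 in the shortest class, where 67.5% were lower, to 0.28 in the longest. The 60 members in the shortest class had a median of -0.38, with 52 lower, and the 12 in the next class -0.36 beside 0.02 for other genes. In PD-1- Tregs the shortest class stood at -0.16 for other genes and -0.24 for members, but the other genes of the longest class stood at -0.17 and those of the middle class at 0.24, so there was no trend along length. In CD4 T cells the shortest class stood at -0.04 and -0.11. In PD-1+ Tregs against CD4 T cells it stood at 0.19 and 0.40. The part of length in the members' differences was not tested. The share of counts in Actb also moved: 4.26 and 3.6% in isotype PD-1+ Tregs against 6.47, 5.88 and 7.27% in treated ones. It went the other way in PD-1- Tregs, with 6.53 and 8.71% against 3.16 and 2.74%. CD4 T cells had 3.24 and 3.84% against 3.85, 6.67 and 4.32%.

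**Figure D5:**
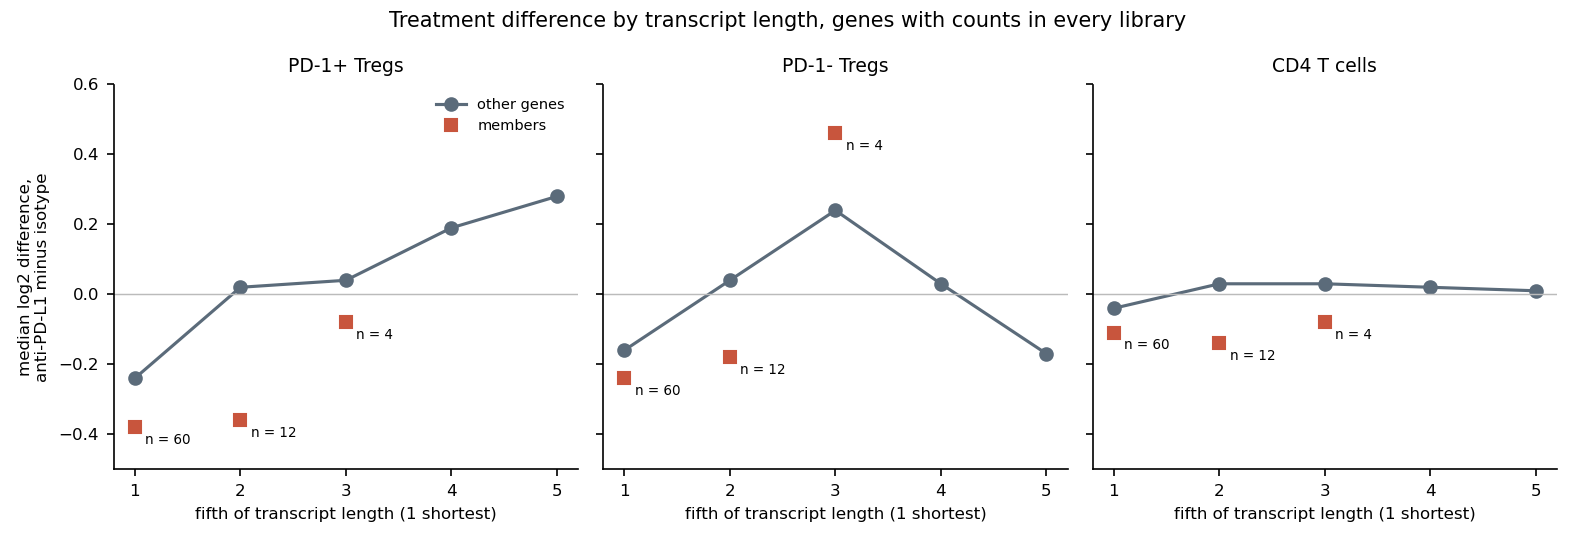
Median log2 difference of anti-PD-L1 minus isotype (vertical axis) by class of transcript length (horizontal axis, 5 equal classes, 1 shortest) for genes with counts in every library; circles are other genes and squares are members, with their number. In PD-1+ Tregs other genes go from -0.24 to 0.28 along the classes, and the 60 members of the shortest class lie at -0.38.

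Some members share sequence that counting could split. At 95% identity over at least 200 bases, 20 of 79 members searched had a near copy, 35 copies in all, of which 33 are annotated as pseudogenes. Atp5l had 9 and Atp5h 4, and Cox7b, Cox7c, Ndufa12, Ndufs3 and Atp5g1 had at least 1, so their values are uncertain to that extent. Exons of 29 of 79 members overlap another gene, 26 of them on the opposite strand.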

How the data were processed

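RNA of 14 libraries in 6 groups was analysed. The deposited table gives, per its headers, raw read counts per gene, and the authors' second table gives RPKM (per kilobase of transcript and 1000000 reads). Per the submitters' processing notes, HISAT2 2.0.4, SAMtools, HOMER 3.12, DESeq2 and build mm10 were used; the sources used here do not give the annotation or how reads were counted, strand included. Members were found by symbol and counts. Counts were tested with edgeR 4.0.16 (R 4.3.3): filterByExpr at a minimum count of 10, TMM, robust quasi-likelihood F-test, 1 fit of 6 group means, Benjamini-Hochberg adjustment over 13434 genes within each of 9 comparisons, threshold 0.05. Population contrasts average both arms with equal weight. Values are log2 differences ± SE, and CPM without a prior count; spreads use log2(CPM + 0.5). RPKM served for levels between genes and, with pseudocounts of 1 and 0.1, as alternatives in limma 3.58.1, beside DESeq2 1.42.0. Depth was 10638848 to 15030804 counts a library, and amplified reads are not independent molecules. The fit was run on simulated counts with less spread between libraries than the real data, and with changes put into treated PD-1+ Tregs alone. That run does not measure the fit's error rates at the spread of these data.

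The members and lists were chosen with earlier results of these data known. The values of 1 member are not reported here, though it is in the counts and sums. Genes named are members past the threshold, core subunits, isoform families, the 3 lowest unadjusted p-values per direction and comparison, and the 3 highest and lowest mean RPKM per complex; others in the text, the length classes, promoter motifs, near copies and the counts of lower members under each alternative were chosen after values were seen. Near copies and overlaps used GENCODE vM21 (GRCm38), and promoters and positions RefSeq GRCm38.p6, the build of mm10.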

Additional observations from a re-analysis of the deposited data

How the results depend on the processing

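Calls were few, and their number depended on the test; in brackets is the share of all genes that the same setting called. DESeq2 called 1 member for treatment of PD-1+ Tregs (4.97%), 16 for that of PD-1- Tregs (23.6%), 4 for PD-1+ against PD-1- Tregs (24.8%), 13 for PD-1+ Tregs against CD4 T cells (6.21%), 11 for PD-1- Tregs against CD4 T cells (25.7%), 6 for the interaction of the Treg types (18.2%) and 3 for that of PD-1- Tregs and CD4 T cells (16.1%). For treatment in PD-1- Tregs, limma-voom (5.11%), quality weights (0%), the fit on only the libraries compared (0%) and the replicate block (1.09%) each called 0, log2 RPKM with pseudocounts of 1 and 0.1 called 4 (3.8%) and 5 (4.06%), and leaving out the Y-linked libraries 3 (4.85%). For PD-1+ against PD-1- Tregs limma-voom called 2 (9.92%) and no filter 1 (3.59%). For PD-1+ Tregs against CD4 T cells limma-voom called 1 (4%), quality weights 9 (5.68%), and RPKM 1 (1.44%) and 2 (2.37%). For PD-1- Tregs against CD4 T cells limma-voom (25%) and RPKM plus 0.1 (13.2%) called 1 each. For the interaction of the Treg types RLE factors (1.44%), RPKM plus 1 (0.692%) or 0.1 (1.37%) and leaving out the Y-linked libraries (2.9%) called 1 each. Leaving out single libraries also changed the number of members called, except for treatment in PD-1+ Tregs or CD4 T cells and their interaction. Those counts are not given, since many of these fits leave 1 library in a group and lack a share over all genes here. Cox6b2 had a treatment difference of 0.00 in PD-1+ Tregs without the Y-linked libraries, having 0 counts in the rest. The causes were not tested.

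The median over members in treated PD-1+ Tregs stayed between -0.51 and -0.25 under 24 alternatives, with 61 to 71 members lower. In PD-1- Tregs it ran from -0.39 to -0.02 and in CD4 T cells from -0.23 to 0.00. The medians of all genes in the same fits are not given beside these ranges. Shifts shared by all genes are thus not set apart from those of the members. The r of deviations from group means was 0.00203 to 0.0354 (median 0.0164) for the 13 pairs of 1 arm that share a bracketed number. For the 20 pairs of 1 arm with different bracketed numbers it was -0.0333 to 0.0172 (median -0.00845). These pairs join different populations. In a group of 2 libraries the deviations are exact opposites. Among isotype libraries, pairs with different numbers thus repeat the r of pairs with the same number, with the sign turned. The sets are therefore not independent. Libraries of 1 population that share a replicate number across arms had -0.0114 to 0.074. All were under 0.1 and the main fit took no pairing, but values this small cannot exclude it. The Y-linked reads, in the 3 libraries with bracketed number 3, show that those 3 share a feature, and whether they share an animal or pool is not stated. With the arm and bracketed number as a replicate block, 0 members were called in each population contrast and interaction. That setting called few of all genes tested. Its shares were 0.625% for PD-1+ against PD-1- Tregs, and 0.283% and 0.387% for PD-1+ and PD-1- Tregs against CD4 T cells. For the interactions the shares were 0 to 0.0744%. The replicate block on the replicate number moved the count of calls from 1 to 0 in treated PD-1- Tregs, and no other call. Depth limits Cox6a2, Cox6b2, Cox7a1 and Ndufa4l2.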
